A study of Rattus norvegicus with 8 samples.

Results

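The genes described here encode the opioid peptide precursors prodynorphin (Pdyn), proenkephalin (Penk) and pronociceptin (Pnoc), and the kappa (Oprk1), mu (Oprm1), delta (Oprd1) and nociceptin (Oprl1) opioid receptors. They were chosen by symbol, and all 7 were found among the 33294 genes listed. Their levels were followed in the neurohypophysis, or neural lobe, of male Sprague Dawley rats at 125 days (4 libraries) and at 35 days (4 libraries, labelled as the control age), to ask how they change with age. No animal was given a drug or carried a genetic change, and the lobes were taken after perfusion with buffered saline under isoflurane. Values are depth-normalized counts, that is, gene read counts divided by a size factor for each library. The labels number the samples but do not tie them to individual rats, and the spread behind each p-value is therefore that among these samples and could be partly technical.

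The neural lobe is where the axons of the hypothalamic vasopressin and oxytocin neurons end and release their hormones into blood, among glial cells called pituicytes. Dynorphins, cut from the Pdyn precursor, are stored in vasopressin terminals of the rat, and enkephalins, cut from the Penk precursor, have been described in oxytocin terminals. Dynorphins act mainly on the kappa receptor, which in the rat neural lobe restrains hormone release. Enkephalins act on the delta and mu receptors, and nociceptin acts on its own receptor. All 4 receptors couple to inhibitory G proteins.

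The start region of Pdyn is shown because this gene had the largest log2 change, in size, of the 5 genes tested, in the fit with age as its only term. The 250 bases before its annotated start in the RefSeq table of assembly GRCr8 lie on the minus strand at chr3:137366504-137366753. This assembly differs from the build of the counts (rn7), and the table held a start region for 3 of the 7 genes. Capitals mark the letters of a TATA box (TATAAA) and of a CCAAT box read on the opposite strand.

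Pdyn: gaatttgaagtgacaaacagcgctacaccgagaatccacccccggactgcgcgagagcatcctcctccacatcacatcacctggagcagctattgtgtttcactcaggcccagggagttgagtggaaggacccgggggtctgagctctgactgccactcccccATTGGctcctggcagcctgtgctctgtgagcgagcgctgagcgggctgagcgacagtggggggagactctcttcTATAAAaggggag

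The TATAAA run begins 13 bases before the annotated start, and the CCAAT run 87 bases before it. Searched on both strands, TATAAA was present in 12.9% and CCAAT in 34.0% of the 33469 start regions of the same length. The cAMP response element TGACGTCA (1.59% of regions), the TGACG stretch within it (18.2%) and the AP-1 element TGANTCA (6.34%) were not among the letters of this window. A match describes the letters and does not show a bound site. Only these exact letters were searched (N being any base), so the lack of a match does not show that a variant of an element is absent. TATAAA and CCAAT were added to the search after the sequence was seen.

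Recovered reads ran from 28429133 to 58696254 per library. All genes that reached 10 depth-normalized counts in 4 or more of the 8 libraries were tested with limma on the log2(value + 1) scale, and were called at a Benjamini-Hochberg adjusted p below 0.05. Of 17919 genes tested, 3174 were called (17.7%), 1585 higher at 125 days (8.85%) and 1589 lower (8.87%). The first principal component separated the ages, and on the second, 35-day replicate 3 stood apart (59.7, against -29.3 to -21.8 in the other 35-day libraries). That library also held the most anterior lobe RNA, and results are given without it where it matters. Every marker of every cell type list was detected in every library, those of pituicytes and of the intermediate lobe among them, so the samples held intermediate lobe and anterior lobe RNA as well as that of the neural lobe. In such bulk samples, fewer cells of a type and less RNA per cell cannot be told apart.

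Of the 7 genes, 5 passed the filter on low values and 3 of those 5 were called. The precursor genes Pdyn and Penk rose at 125 days and the kappa receptor gene Oprk1 fell. Pnoc and Oprl1 were low and did not pass the test, and Oprm1 and Oprd1 had too few reads to be tested. The values of the ages did not overlap for Pdyn and Oprk1, 2 of the 5, and over all genes tested the ages did not overlap in 24.9%. The test of all genes called 17.7%, and 5 genes are too few to read a share from.

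**Figure D1:**
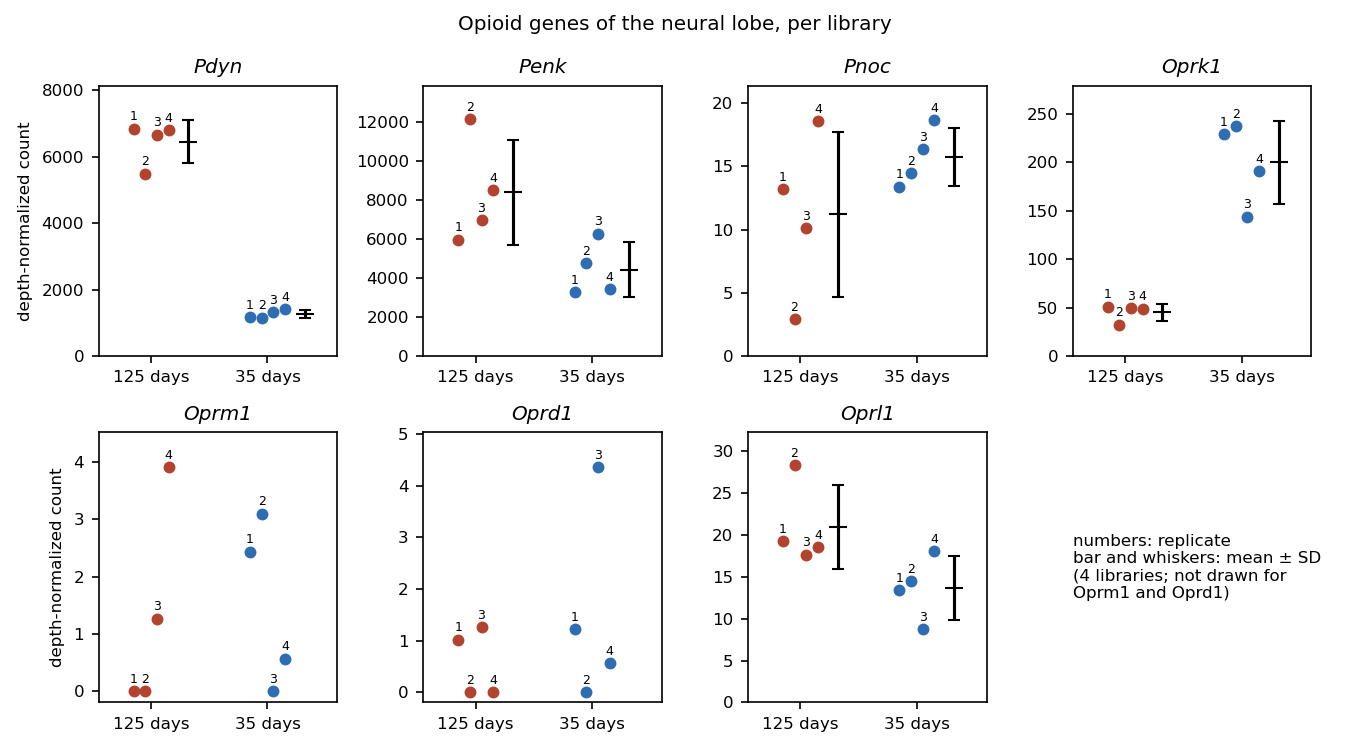
Depth-normalized count (linear axis from 0, own scale for each gene) of the 7 opioid genes in each library of 125 days (left, red) and 35 days (right, blue), with the replicate number beside each point and the mean ± SD of 4 libraries as a bar (not drawn for Oprm1 and Oprd1). All 125-day points of Pdyn lie above those of 35 days (5487 to 6842 against 1155 to 1415), all of Oprk1 lie below (32.3 to 50.8 against 144 to 238), and the 2 ages overlap for the other genes.

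Among the precursors, Pdyn was at 6842, 5487, 6667 and 6801 depth-normalized counts in 125-day replicates 1 to 4, against 1172, 1155, 1313 and 1415 in 35-day replicates 1 to 4. The lowest 125-day library was well above the highest 35-day library. The mean was 5.10 times higher at 125 days (6449 ± 646 at 125 days and 1264 ± 123 at 35 days, SD, n = 4 each), and the log2 change was 2.35 with a 95% confidence interval of 2.11 to 2.59 in limma (adjusted p = 3.15e-06). By p-value Pdyn ranked 4 among the 17919 genes tested, and by size of change it ranked 58 among the 1585 that rose. Its spread within an age was the smallest of the 7 genes, with a coefficient of variation of 9.74% at 35 days and little more at 125 days. These values rest on 24595 recovered reads at 125 days and 5793 at 35 days.

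The markers of several cell types differed between the same libraries. Among the 6 axon terminal markers, Oxt and Snap25, a gene of the vesicle release machinery, rose and the neurofilament gene Nefl fell. Avp, Nefm and Syt1 were not called. The summed value of the 6 did not overlap (32883 to 35672 at 125 days and 22875 to 27000.2 at 35 days). Snap25 was its largest part (mean 17957 at 125 days and 12383 at 35 days). With the intermediate lobe marker level as a covariate, the Snap25 change was 0.03 (limma adjusted p = 0.955). Without 35-day replicate 3, 4 of the 6 axon terminal markers rose and 1 fell. Gonadotrophs of the rat anterior lobe also express Pdyn. All 5 of their markers fell, and their summed value ran from 3945 to 9800 at 125 days and from 17565 to 114886 at 35 days. The part of these cell types in the level of Pdyn was not tested. With the mean anterior lobe marker level as a covariate, the Pdyn change was 2.48 (SE 0.14, adjusted p = 3.67e-05). Of the 5 intermediate lobe markers 2 rose, Oacyl and Pcsk2. The sum of all 5 ran from 3620310 to 5344440 at 125 days and from 2009420 to 3759830 at 35 days. Nearly all of that sum was Pomc, which was not called (log2 change 0.87, SE 0.57, limma adjusted p = 0.333). With the mean log2 level of the 5 markers as a covariate, whose values did not overlap between the ages, the Pdyn change was 2.204 (SE 0.22, adjusted p = 0.00761).

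Penk was at 5975, 12139, 6962 and 8522 depth-normalized counts in 125-day replicates 1 to 4, against 3282, 4744, 6271 and 3415 in 35-day replicates 1 to 4. The highest value was that of 125-day replicate 2, and the ages overlapped, since 35-day replicate 3 was above 125-day replicate 1. The mean was 1.90 times higher at 125 days (8399.7 ± 2705 at 125 days and 4428 ± 1395 at 35 days, SD, n = 4 each), with a log2 change of 0.92 (95% confidence interval 0.36 to 1.48, limma adjusted p = 0.0311). The coefficient of variation was 32.2% at 125 days and 31.5% at 35 days, the 2 ages being about as variable as each other.

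The Penk call was a narrow one. It was lost in limma without 125-day replicate 2, 3 or 4, or 35-day replicate 1, 2 or 4 (adjusted p from 0.0554 to 0.0861), and held without 35-day replicate 3 (log2 change 1.11, SE 0.22, adjusted p = 0.00487) or 125-day replicate 1 (1.07, SE 0.26, adjusted p = 0.0318). With the intermediate lobe level as a covariate the change was 2.14 (SE 0.30, adjusted p = 0.0173). In the same libraries, 125-day replicate 2 had the highest sums of the 125-day libraries for markers of pituicytes (87222, against 58223 to 66343), fibroblasts (29032, against 18298 to 20754) and endothelium (17589, against 8980 to 12429). The other age differed: 35-day replicate 3, its highest for Penk, had its lowest sums for pituicytes (73543, against 96139 to 126382) and endothelium (16214, against 17884 to 21726). Scn7a was the largest part of that pituicyte sum, and the single markers differed. Lhx2, Nkx2-1, Col25a1, Scn7a and Aqp4 were at their 35-day lowest in replicate 3. Rax and Vim were at their 35-day highest there, and Gfap, S100b and Slc1a3 lay between. The fibroblast sum of the same library (52029) lay within those of the other 35-day libraries (44066 to 56198). The part of these cell types in the level of Penk was not tested.

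Pnoc was close to the lower limit of measurement. Its values were 13.2, 2.93, 10.1 and 18.6 depth-normalized counts in 125-day replicates 1 to 4, against 13.4, 14.5, 16.3 and 18.6 in 35-day replicates 1 to 4. The ages overlapped: 125-day replicates 1, 2 and 3 were below every 35-day library, and 125-day replicate 4 was level with the highest. The value of 125-day replicate 2 is 3 reads, and without it the log2 change was -0.19 (SE 0.31, limma adjusted p = 0.732). The means were 11.2 ± 6.53 at 125 days and 15.7 ± 2.30 at 35 days (SD, n = 4 each), and the log2 change of -0.66 had a 95% confidence interval from -1.69 to 0.37 (limma adjusted p = 0.364).

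Among the receptors, Oprk1 was the only 1 of the 4 with more than 100 depth-normalized counts in any library. It was at 50.8, 32.3, 49.2 and 48.9 in 125-day replicates 1 to 4, against 229, 238, 144 and 191 in 35-day replicates 1 to 4. Every 125-day library was below every 35-day library. The mean was 4.42 times lower at 125 days (45.3 ± 8.72 at 125 days and 200.3 ± 42.8 at 35 days, SD, n = 4 each). The log2 change was -2.12 (95% confidence interval -2.60 to -1.63, limma adjusted p = 1.86e-04), which ranked 202 by size among the 1589 genes that fell, on 172 recovered reads at 125 days and 888 at 35 days.

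The lowest library of each age for Oprk1 was the one highest for Penk, 125-day replicate 2 and 35-day replicate 3. Oprk1 thus fell while the gene of its main ligand precursor, Pdyn, rose in the same lobes. Of the 10 pituicyte markers, 3 fell (Gfap, S100b and Aqp4) and their summed value ran from 58223 to 87222 at 125 days and from 73543 to 126382 at 35 days. With the anterior lobe covariate 6 of them fell, and 7 did when 35-day replicate 3 was left out. All 4 called markers among the 5 of endothelium, and likewise of fibroblasts, were lower at 125 days too. Which cells the Oprk1 reads came from was not tested. With the anterior lobe covariate the Oprk1 change was -2.21 (SE 0.30, adjusted p = 0.00179), and with the intermediate lobe covariate -2.92 (SE 0.35, adjusted p = 0.0120).

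**Figure D2:**
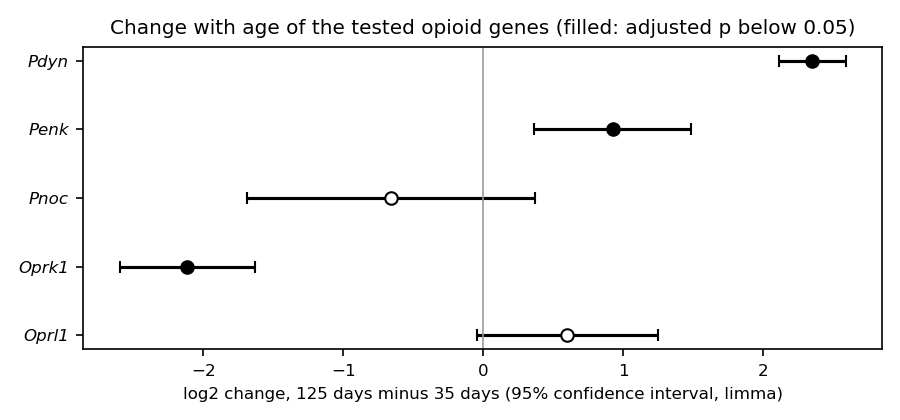
Log2 change of the 5 tested opioid genes, 125 days minus 35 days (x axis), with the 95% confidence interval from limma as a bar and filled points for adjusted p below 0.05. The intervals of Pdyn (2.11 to 2.59) and Penk (0.36 to 1.48) lie above 0, that of Oprk1 (-2.60 to -1.63) lies below it, and those of Pnoc and Oprl1 include 0.

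Oprl1, the nociceptin receptor gene, was at 19.3, 28.3, 17.7 and 18.6 depth-normalized counts in 125-day replicates 1 to 4, against 13.4, 14.5, 8.72 and 18.1 in 35-day replicates 1 to 4. The 2 ages overlapped in a narrow range, with 35-day replicate 4 above 125-day replicate 3. The means were 21.0 ± 4.96 at 125 days and 13.7 ± 3.85 at 35 days (SD, n = 4 each), and the log2 change of 0.60 had a 95% confidence interval from -0.05 to 1.25 (limma adjusted p = 0.191). A change of the size seen for Pdyn or Oprk1 lies outside that interval, and a smaller rise does not.

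Oprm1, the mu receptor gene, had 0, 0, 1 and 4 recovered reads in 125-day replicates 1 to 4, against 2, 3, 0 and 1 in 35-day replicates 1 to 4. Oprd1, the delta receptor gene, had 1, 0, 1 and 0 reads in the 125-day replicates, against 1, 0, 4 and 1 in the 35-day replicates. Neither reached the value needed to be tested, and no fold change is given for them. A library with 0 reads allows up to 3, or 2.93 to 3.27 depth-normalized counts, by counting error alone. A difference between the ages was not detectable for these genes at this depth. The transcripts of the receptors that enkephalins prefer were thus at the edge of detection in the lobe, while Penk itself had 32542 recovered reads at 125 days and 19092 at 35 days. Receptor protein was not measured, so these reads do not show whether the lobe holds the receptors.

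Because dynorphin is stored with vasopressin and enkephalin with oxytocin, precursor genes were also set against the hormone genes within each library, which removes the size factor. In these bulk samples the 2 genes of a ratio can come from different cells, and their source was not tested. The values are log2 ratios of depth-normalized counts and are not per length, so their difference between ages can be read but not which gene is more abundant. The Pdyn to Avp ratio was 2.32, 0.91, 1.35 and 1.67 in 125-day replicates 1 to 4, against -0.76, -1.21, -1.21 and -0.95 in 35-day replicates 1 to 4. It was higher in every 125-day library, by 2.59 on the log2 scale (mean 1.56 ± 0.59 at 125 days and -1.03 ± 0.22 at 35 days, SD, n = 4 each). The two-sided exact permutation p was 0.0286, the smallest that 4 against 4 allows, and 0.0381 adjusted over the 4 ratios tested. Avp, the vasopressin gene, was at 1369 to 2920 depth-normalized counts at 125 days and 1979 to 3036 at 35 days, and its own change did not pass the test (log2 change -0.24, SE 0.22, limma adjusted p = 0.502). With the intermediate lobe covariate the Avp change was 0.81 (SE 0.28, adjusted p = 0.247), and without 125-day replicate 1 it was -0.02 (SE 0.17, adjusted p = 0.956).

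The Pdyn to Oxt ratio averaged 0.59 ± 0.54 at 125 days and -0.94 ± 0.32 at 35 days (SD, n = 4 each), a difference of 1.53 with no overlap (exact permutation p = 0.0286, adjusted 0.0381). The Pdyn to Penk ratio averaged -0.33 ± 0.58 at 125 days and -1.76 ± 0.46 at 35 days (SD, n = 4 each), a difference of 1.43 (exact permutation p = 0.0286, adjusted 0.0381). Pdyn thus rose relative to both hormone genes and to the other large opioid precursor gene. With any 1 of the 35-day libraries left out, the adjusted p of these 3 ratios was 0.0571 or 0.0762. Over all single libraries left out it ran from 0.0381 to 0.0762. Such a test has fewer than the 70 arrangements of the full one, but that alone does not raise its p. The p rises where an arrangement other than the observed one gives a mean difference at least as large. This can happen although the ages still did not overlap.

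The Penk to Oxt ratio was nearly constant. It was 1.01, 1.04, 0.71 and 0.93 in 125-day replicates 1 to 4, against 0.61, 1.03, 0.93 and 0.72 in 35-day replicates 1 to 4. The means were 0.92 ± 0.15 at 125 days and 0.82 ± 0.19 at 35 days (SD, n = 4 each), a difference of 0.10 that did not pass the exact permutation test (p = 0.429, adjusted 0.429). Across all 8 libraries the linear ratio ran from 1.52 to 2.06, while Penk itself ranged from 3282 to 12139 depth-normalized counts.

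**Figure D3:**
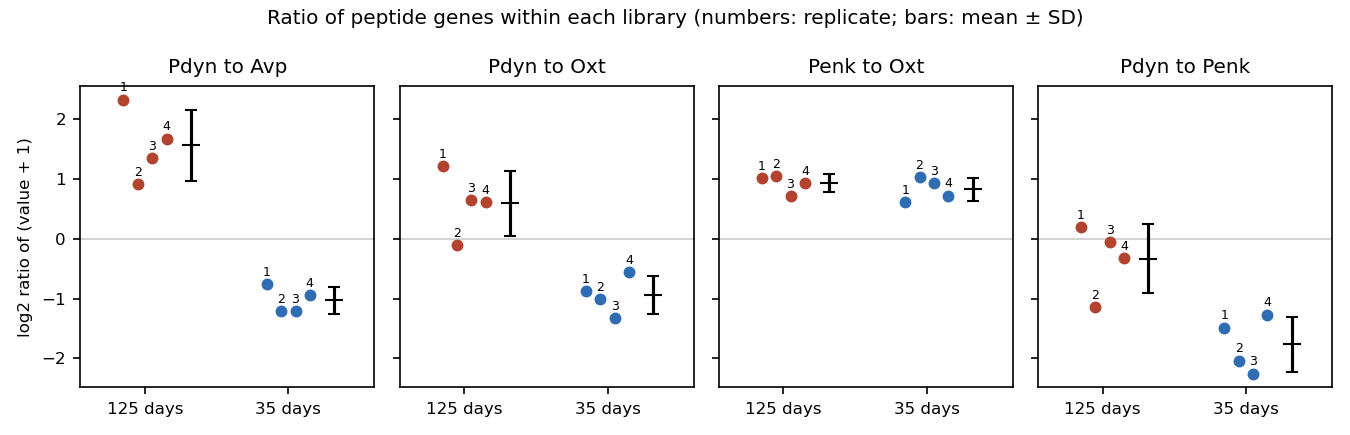
Log2 ratio of (value + 1) for 4 pairs of peptide genes in each library of 125 days (left, red) and 35 days (right, blue), with replicate numbers and the mean ± SD of 4 libraries. The Pdyn to Avp, Pdyn to Oxt and Pdyn to Penk ratios lie higher in every 125-day library, and the Penk to Oxt ratio stays between 0.61 and 1.04 at both ages.

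The genes whose profile over the 8 libraries was most like each opioid gene were found by the root mean square difference in log2(value + 1), after centring each gene on its own mean, among genes with a symbol and a mean of at least 100. For Penk the nearest gene of all was Oxt, at a difference of 0.16. Oxt, the oxytocin gene, was at 2966, 5895, 4257 and 4473 depth-normalized counts in 125-day replicates 1 to 4, against 2152, 2320, 3293 and 2079 in 35-day replicates 1 to 4. Both genes were highest in replicate 2 and lowest in replicate 1 of the 125-day libraries, and highest in replicate 3 of the 35-day libraries. That order was not particular to this pair. Avp and the pituicyte marker Rax had it too, though not every pituicyte marker did. The lowest 35-day library was replicate 1 for Penk and replicate 4 for Oxt. The next were Cebpa, a transcription factor gene (0.21), Crym, which encodes a thyroid hormone binding protein (0.21), Chi3l1, a chitinase-like gene (0.24), and Ccn1, a matricellular gene (0.25).

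For Pdyn the nearest was Prlhr, the receptor gene of prolactin-releasing peptide (0.23), followed by the pseudokinase gene Trib3 (0.24), the kinase gene Pak5 (0.25), the neurexophilin gene Nxph1 (0.25) and the glycosyltransferase gene Galnt5 (0.26). Prlhr averaged 391 depth-normalized counts at 125 days and 88.5 at 35 days, a log2 change of 2.11 (SE 0.16, limma adjusted p = 3.38e-05). For Oprk1 the nearest were the synaptic adhesion gene Slitrk5 (0.16), the proliferation marker Mki67 (0.21), the cadherin gene Cdh8 (0.21), the mitotic spindle gene Hmmr (0.23) and the glycosyltransferase gene Galnt9 (0.24). Slitrk5 was at 99.7 depth-normalized counts at 125 days and 420.1 at 35 days, a log2 change of -2.02 (SE 0.21, limma adjusted p = 1.85e-04). These neighbours were picked for their profile, so their changes are a description.

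**Figure D4:**
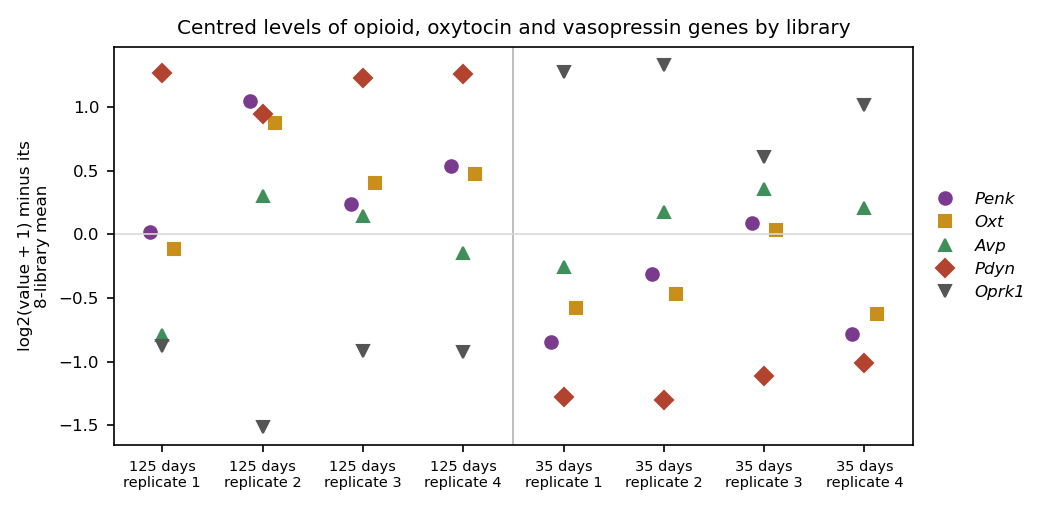
Log2(value + 1) of Penk, Oxt, Avp, Pdyn and Oprk1 minus its mean over the 8 libraries (y axis), for the libraries of 125 days (left) and 35 days (right). The Penk and Oxt points lie close together in every library (root mean square difference 0.16), while Pdyn is above and Oprk1 below its mean at 125 days.

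The genes around the opioid system were described with 6 lists. Of their 71 tested genes, 15 rose and 3 fell, beside 8.85% and 8.87% of all genes tested. The count depends on the libraries: it was 30 (21 higher, 9 lower) without 35-day replicate 3, and 10, 11, 10 and 11 without 125-day replicates 1, 3 and 4 and 35-day replicate 2. The counts of the single lists below are to be read beside the same shares of all genes tested, and the lists are short.

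Peptide processing enzymes cut precursors into opioid peptides. Their share of calls was close to the 17.7% over all genes tested. Of 12, 2 rose and none fell (median log2 change 0.19, against 0.01 over all genes tested). These were the prohormone convertase genes Pcsk1 (log2 change 1.57, SE 0.15, limma adjusted p = 1.46e-04) and Pcsk2 (0.79, SE 0.19, adjusted p = 0.0193), which are also expressed in endocrine cells of the pituitary. Pcsk2 missed the threshold with the anterior lobe covariate (0.50, SE 0.23, adjusted p = 0.184), without 125-day replicate 1 (0.0640) or 4 (0.0605), and with the intermediate lobe covariate, where its value was -0.09 (SE 0.24, adjusted p = 0.875), Pcsk2 being itself in that marker list. With that covariate the Pcsk1 value was 0.91 (SE 0.22, adjusted p = 0.101). Without 35-day replicate 3, 5 rose and 1 fell.

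Of 12 peptidases that can degrade opioid peptides, such as Mme (neprilysin), Anpep and Dpp3, none was called in limma. At an unadjusted p below 0.05 there were 2, edgeR called 0 and DESeq2 called 1. Their median log2 change was -0.03, and without 35-day replicate 3, 4 fell.

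Among 16 genes of receptor coupling and desensitization, 2 rose and 2 fell (median 0.05). Grk3, a receptor kinase gene, was at 1666 ± 137 depth-normalized counts at 125 days and 982 ± 188 at 35 days (SD, n = 4 each), with a log2 change of 0.78 (SE 0.14, limma adjusted p = 0.00527). Taking the anterior lobe level into account, it missed the threshold (0.54, SE 0.17, adjusted p = 0.0614), and with the intermediate lobe level the change was 0.19 (SE 0.21, adjusted p = 0.693). Gnao1, encoding the G protein subunit Go alpha, rose by 0.43 (SE 0.13, adjusted p = 0.0429), while Gnai3, encoding an inhibitory subunit, fell by 0.32 (SE 0.08, adjusted p = 0.0226). Rgs20, a regulator of such G proteins, was at 14.1 ± 4.44 at 125 days and 31.2 ± 6.70 at 35 days (SD, n = 4 each), with a log2 change of -1.12 (SE 0.29, adjusted p = 0.0247). The calls of these last 3 genes were lost with the anterior lobe covariate (adjusted p = 0.257, 0.112 and 0.133) and under leaving out 6, 4 and 5 of the 8 libraries.

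Of 11 effectors, which include potassium channels opened and calcium channels and cyclases inhibited by these receptors, 2 rose and 1 fell (median 0.34). Kcnj5, a channel subunit gene, was at 1148 ± 136 depth-normalized counts at 125 days and 682 ± 64.5 at 35 days (SD, n = 4 each), with a log2 change of 0.75 (SE 0.11, limma adjusted p = 0.00174). The adenylyl cyclase gene Adcy5 rose by 0.76 (SE 0.13, adjusted p = 0.00389), and Adcy3 fell by 0.49 (SE 0.13, adjusted p = 0.0243). The Adcy3 call was lost without 125-day replicate 1 or 3 or 35-day replicate 1, 2 or 4 (adjusted p from 0.0562 to 0.0783).

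Of 12 genes listed as regulators of the Pdyn gene, 7 rose and none fell (median 0.81), and without 35-day replicate 3 the count was 8. This list, like the others, was chosen with earlier results of these data known, so its count is a description. The AP-1 family genes Fosb (log2 change 2.62, SE 0.31), Junb (2.54, SE 0.50) and Fosl2 (2.25, SE 0.28) had limma adjusted p of 4.07e-04, 0.00723 and 5.32e-04. Crem, whose product binds cAMP response elements, was at 6627 ± 832 at 125 days and 3095 ± 800.3 at 35 days (SD, n = 4 each), with a log2 change of 1.13 (SE 0.20, adjusted p = 0.00389). Atf3 rose by 0.91 (SE 0.22, adjusted p = 0.0182), and so did Kcnip3 by 0.71 (SE 0.18, adjusted p = 0.0221), which encodes the calcium-dependent repressor DREAM. The Atf3 call was lost without 125-day replicate 1, 3 or 4 or 35-day replicate 2 (0.0520 to 0.0614), and that of Kcnip3 without 125-day replicate 1 or 3 or 35-day replicate 1 or 2 (0.0521 to 0.0708). The seventh was Fos (log2 change 2.08, SE 0.61, adjusted p = 0.0406), which overlapped between the ages and was named, after its values were seen, to complete the count. Its call was lost under the replicate block (adjusted p = 0.0531), without the intensity trend (0.0671) and without 125-day replicate 1, 3 or 4 or 35-day replicate 1 or 4 (0.0669 to 0.112). With the anterior lobe covariate the change was 3.81 (SE 0.33) for Fos and 3.97 (SE 0.26) for Junb. With the intermediate lobe covariate none of the 7 was called (limma adjusted p from 0.114 for Fosb to 0.817 for Kcnip3). The Kcnip3 change was then 0.18 (SE 0.33), and the others ran from 0.99 (Crem) to 3.12 (Junb). Creb1, Atf1, Fosl1, Jun and Jund did not pass the test.

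Of 12 peptides of magnocellular neurons, 8 passed the filter and 2 rose, with no fall (median 0.03). Besides Oxt (log2 change 0.82, SE 0.21, limma adjusted p = 0.0235), Adcyap1, encoding the peptide PACAP, was at 31.3 ± 8.82 depth-normalized counts at 125 days and 13.3 ± 4.12 at 35 days (SD, n = 4 each), with a log2 change of 1.19 (SE 0.32, adjusted p = 0.0311). Oxt missed the threshold with the anterior lobe covariate (0.94, SE 0.29, adjusted p = 0.0546) and without any 1 of 6 libraries, all but 125-day replicate 1 and 35-day replicate 3 (0.0511 to 0.0678). Adcyap1 missed it under the replicate block (0.0617), without the filter (0.0510) and without 125-day replicate 1, 2 or 4 or 35-day replicate 1 or 4 (0.0513 to 0.1004). In the fit with the intermediate lobe covariate 1 of the 71 list genes, Oxt, was called (1.85, SE 0.23, adjusted p = 0.0122).

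**Figure D5:**
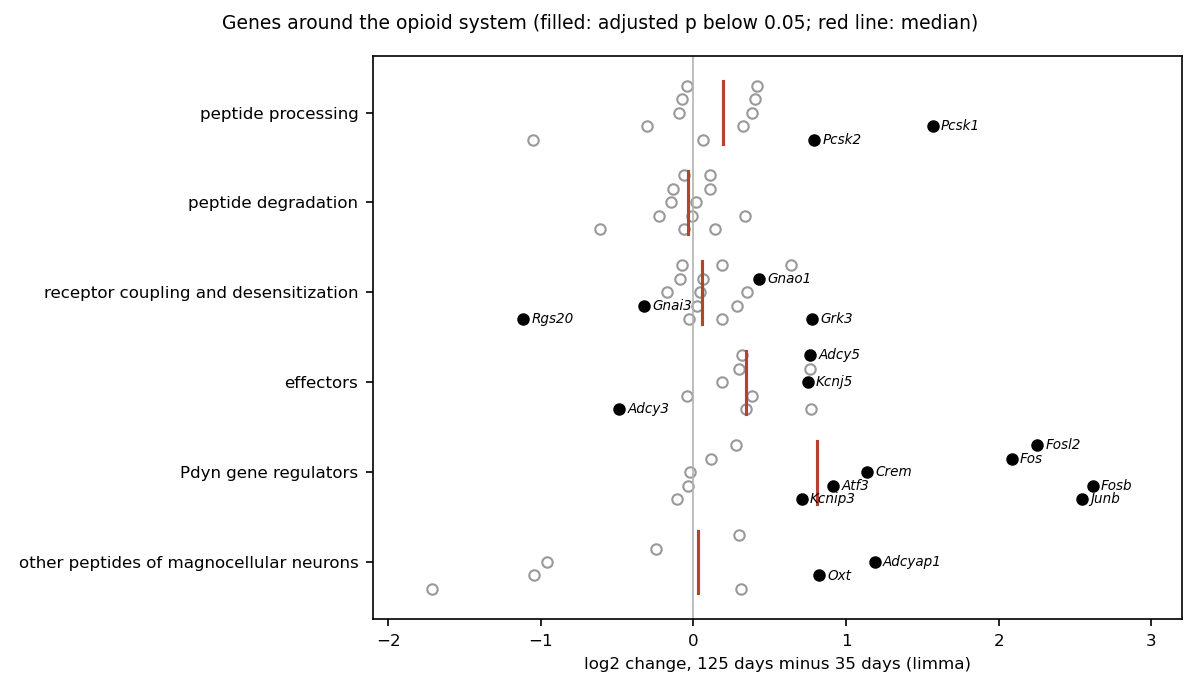
Log2 change, 125 days minus 35 days (x axis), of the 71 tested genes in 6 lists around the opioid system, with filled points for limma adjusted p below 0.05 and a red line at each list's median. The list of Pdyn gene regulators has the median farthest from 0 (0.81) and 7 filled points, and peptide degradation has none. The lists were chosen with earlier results of these data known.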

How the data were processed

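Per the labels' protocols, poly(A) RNA was selected and NEBNext Ultra II libraries were prepared. The submitters' processing notes name, with no roles, build rn7, DESeq2 1.34.0, featureCounts (Subread 2.0.1), SAMtools 1.13, HISAT2 2.2.1 and Trimmomatic 0.39. For annotation and strand setting the sources used here give nothing, so reads of overlapping genes cannot be told apart. The deposited table holds a depth-normalized signal: dividing each library by its lowest value above 0 gave whole numbers for 100% of values (tolerance 0.001), which were taken as reads. Size factors ran from 0.793 to 1.77. Floors reflect counting error only. Within each age, every pair of libraries differed by more than sampling noise (chi-square per gene 14.2 to 260.0, where noise alone gives about 1).

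Age was the only term of the main fit, limma 3.58.1 in R 4.3.3, which used log2(value + 1) and an intensity trend. The change of low genes is understated on this scale. Alternatives were: edgeR 4.0.16 and DESeq2 1.42.0 on recovered reads; library weights; no trend; TMM or library total scaling; pseudocounts of 0.5 and 5; a filter on the mean (50) or none; each library left out; marker levels of the anterior or intermediate lobe as covariates; and a replicate block. edgeR called 3170 and DESeq2 4196 genes. The members and lists were chosen with earlier results of these data known. The text names the 7 members, Avp, Oxt, up to 6 called genes per list with the lowest adjusted p, and the 5 nearest profiles of each member with a mean of at least 100. The fit was tested on simulated data. Figures were drawn with matplotlib 3.10.9.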

Additional observations from a re-analysis of the deposited data

Results flagged for a closer look

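Within the 4 libraries of an age, a library was noted where it stood apart from the other 3 by Dixon's 95% criterion. This happened in 7 of 60 groups checked, where chance gives about 1 in 20. In 125-day replicate 2, Pdyn was low at 5487 depth-normalized counts (next 6667), Oprk1 was low at 32.3 (next 48.9) and Oprl1 was high at 28.3 (next 19.3). That library also had the lowest anterior and intermediate lobe marker levels of its age. Pcsk2 was low at 12949 in 35-day replicate 3 (next 21432). Kcnj5 was high at 1349 in 125-day replicate 3 (next 1110.3), Fosb was high at 1832 in 125-day replicate 4 (next 985), and Crem was low at 1907 in 35-day replicate 4 (next 3330.1).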

How the results depend on the processing

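Pdyn and Oprk1 kept their direction and their call under all 21 alternatives, at log2 changes from 2.204 to 2.476 and from -2.92 to -1.97. Pnoc and Oprl1 stayed below the threshold in all 20 that could be fitted, since a mean of at least 50 leaves them out. Penk was lost without the intensity trend (0.92, adjusted p = 0.0536), and ran from 0.73 to 1.11 with a library left out. The call counts moved most: 3174 genes in all became 7892 with library weights, 211 with the intermediate lobe covariate and 1894 to 5495 with a library left out, and the 18 list genes became 42, 1 and 10 to 30. Library total scaling gave 1161 higher and 1979 lower calls, against 1585 and 1589. With that covariate Pcsk2 (-0.093), Gnao1 (-0.0099) and Avp (0.81, against -0.24) changed sign, and none of the 3 passed the threshold there. The cause was not tested, but the covariate's values do not overlap between the ages.

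Libraries of the same replicate number did not deviate together more than others did. Their correlations of deviations were 0.04, 0.17, -0.00019 and -0.12, against -0.22 to 0.22 for differently numbered libraries. The labels do not say whether the numbers pair the libraries, and these correlations cannot exclude it. With the replicate block 2718 genes were called, and Pdyn, Penk and Oprk1 were called. For the ratios the block allows no p below 0.125: the Pdyn to Avp, Pdyn to Oxt and Pdyn to Penk differences of 2.59, 1.53 and 1.43 had adjusted p = 0.167 in the exact test. With a library left out they ran from 2.34 to 2.81, from 1.32 to 1.76 and from 1.25 to 1.70. Depth limits Oprm1, Oprd1, Pnoc and Oprl1.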
